A study of Mus musculus with 2 samples.

Results

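Cldn13, Cldn4 and Cldn3 are 3 claudin genes that lie close together on mouse chromosome 5, and their transcripts were followed between 2 pools of sorted embryo cells. The 3 loci were chosen by position on mm9 from 24214 loci in the authors' deposited table, and for the signs of their fold changes in that table. They hold 4 of its 55418 transcripts, of which 3 were tested. Because the signs of the fold changes entered the choice, the values of these 3 transcripts are given as a description, and their q-values support nothing further.

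Claudins are membrane proteins that cross the membrane several times and form the strands of tight junctions. Those strands seal the space between neighbouring epithelial cells and set which ions pass. Cldn3 and Cldn4 are claudins of simple epithelia and are receptors for the enterotoxin of Clostridium perfringens. Cldn13 is found in rodents but not in humans, and in mice it is known from red blood cell precursors and haematopoietic tissue.

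Non-neural ectoderm, the surface layer that borders the closing neural tube, is the label of the GFP-positive pool. The RFP-positive pool is labelled as the neural tube cells left after its removal. Both came from mTmG X Grhl3-cre embryos on a C57BL/6 background at embryonic day 9.5, of 21 to 25 somites. RNA of 25 embryos was pooled, and each pool gave 1 library, so there was no replicate check. In this cross, Cre recombinase under Grhl3 control turns a membrane reporter from red to green, so green fluorescence follows past or present Grhl3 activity and not claudin expression.

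The authors' deposited table calls its conditions q1 and q2, and neither name matches a pool. No value below therefore says which pool was higher. A positive log2 fold change is higher in q2 than in q1, and a negative one is lower in q2 than in q1. The test statistics of the 3 tested claudin transcripts carry the opposite sign to their fold changes. Directions here follow the fold changes alone. The abundances per condition, which match no sample, were not used here, so only the ratio between the conditions is given for each transcript. The table names no gene and marker loci were not looked up by position, so the identity of the pools was not checked against marker genes.

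The names of the loci follow from their positions and were compared with the RefSeq genes of the later build GRCm38 by length and spacing alone. The first locus spans 1281 bases and the second 1812 bases, the same lengths as Cldn13 and Cldn4 in RefSeq. The gap between them is 29592 bases in both builds. The gap of 39279 bases from the Cldn4 end to the start of the third locus also equals that from Cldn4 to Cldn3. The third locus is 15137 bases long, whereas Cldn3 has 1263 bases in RefSeq. Its length equals the distance from the start of Cldn3 to the end of Wbscr25, a GENCODE transcript annotated as antisense, which overlaps the end of Cldn3 by 44 bases. The table lists 2 transcripts at the third locus and does not say which is Cldn3, so its values are those of the Cldn3 locus.

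Between conditions q2 and q1 the 3 claudin loci had fold changes of both signs, which the choice of these loci had used. Cldn13 was 9.13-fold higher in q2 than in q1, and Cldn4, the next claudin along the chromosome, was 5.59-fold lower in q2 than in q1, in the authors' deposited table. The tested transcript of the Cldn3 locus was 3.43-fold lower in q2 than in q1 in the authors' deposited table and was not marked significant there. Of the 3 tested transcripts, 1 was called positive and 1 negative. Over all transcripts, 0.69% of 29405 tested transcripts were called positive and 0.112% negative. These calls were among the values that chose the members, so nothing is read from that comparison.

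**Figure D1:**
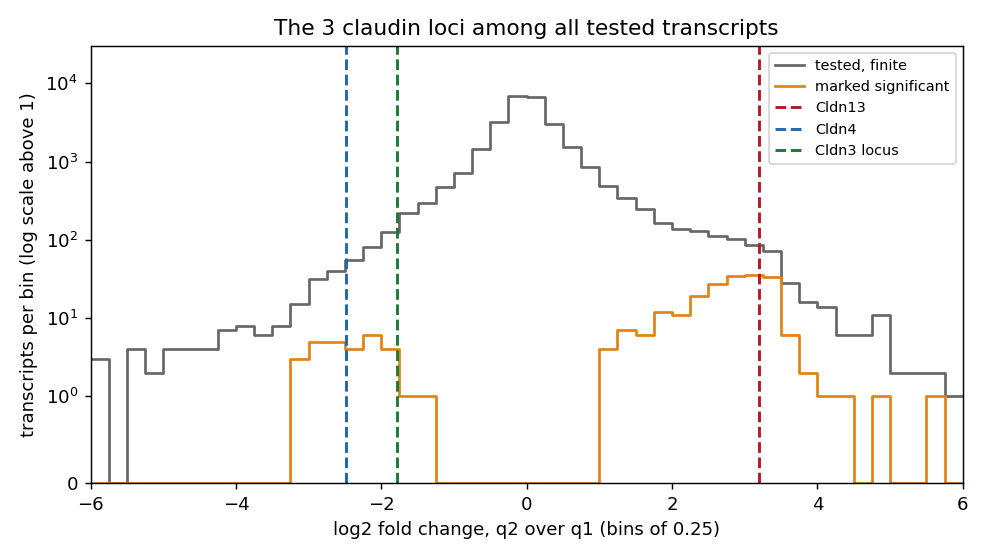
Number of transcripts (vertical axis, log scale above 1) by log2 fold change of q2 over q1 (horizontal axis, bins of 0.25, shown from -6 to 6) for all tested transcripts with a finite value (grey) and for those the authors' deposited table marks significant (orange). The dashed lines mark Cldn13 at 3.19, Cldn4 at -2.48 and the Cldn3 locus at -1.78. Cldn13 stands where positive calls are most frequent, while negative calls are few around Cldn4.

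Cldn13 lies on chromosome 5 from 135390120 to 135391400 of mm9 and is listed as transcript uc008zwy.2, the only one at its locus. In GENCODE it has 2 exons on the minus strand and a coding sequence of 633 bases. The authors' deposited table lists Cldn13 at a log2 fold change of 3.19. Its error was 0.54, which gives a 95% interval from 2.14 to 4.24, or from 4.41-fold to 18.9-fold. The error is the absolute log2 fold change over the absolute test statistic, and the interval covers what the authors' test modelled between 2 libraries, not the spread between embryos. The q-value of Cldn13 in the authors' deposited table was 1.03e-06. Of 28140 tested transcripts with a finite value, 371, or 1.32%, were at least as far to the positive side.

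Among the 201 finite positive calls, Cldn13 was neither extreme in size nor in precision. A larger fold change was listed for 54 of them and a smaller error for 115. Their median log2 fold change was 2.88, with a median error of 0.49. A further 73 positive calls lay within 0.25 log2 units of Cldn13, so its value is one that many called transcripts share in this table.

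Cldn4 lies on chromosome 5 from 135420993 to 135422804 of mm9 and is listed as transcript uc008zxd.2, again the only one at its locus. It is a gene of 1 exon on the minus strand, with a coding sequence of 630 bases in GENCODE. The authors' deposited table lists Cldn4 at a log2 fold change of -2.48. Its error was 0.64, and the 95% interval ran from -3.74 to -1.22, or from 2.33-fold to 13.4-fold lower in q2. The q-value in the authors' deposited table was 0.0163, so Cldn4 would lose its call at a limit of 0.01. In the table, 354 tested transcripts with a finite value, or 1.26%, were at least as far to the negative side.

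Negative calls were scarce, and Cldn4 was a middling one in size. There were 29 of them with a finite value, with a median log2 fold change of -2.38 and a range from -3.20 to -1.25. Cldn4 had 13 calls beyond it and 15 closer to 0. Its error was above that of 18 of the negative calls, whose median error was 0.57. A larger absolute test statistic was listed for 20 of the 29.

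The Cldn3 locus runs from 135462084 to 135477220 of mm9 on chromosome 5. Cldn3 itself is a gene of 1 exon on the plus strand in GENCODE, with a coding sequence of 657 bases. The tested transcript there, uc008zxe.2, is listed at a log2 fold change of -1.78 in the authors' deposited table, and its error was 0.70. The 95% interval ran from -3.16 to -0.40, or from 1.32-fold to 8.91-fold lower in q2. The p-value in the authors' deposited table was 0.0115 and the q-value 0.660, so the transcript was not called. The second transcript, uc008zxf.1, was not tested. Its ratio is a placeholder of negative sign for a ratio against 0, so that it has no finite value.

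Cldn4 and the tested transcript of the Cldn3 locus had the same sign, and Cldn4 alone of these was called. The difference between their log2 fold changes, Cldn4 minus the Cldn3 locus, was -0.70, with an interval from -2.57 to 1.16 when the errors are taken as independent. That interval includes 0 and also differences of over 2-fold either way. Only 2 of the finite negative calls had a smaller fold change than the Cldn3 locus, and 22 of the 29 had a smaller error. All 3 claudin loci differed by at least 2-fold, 1 positive and 2 negative, while 7.66% of the 28140 tested transcripts with a finite value passed 2-fold on the positive side and 5.7% did so on the negative side. The fold changes were among the values that chose the loci, so nothing is read from those shares. Cldn13 lay 5.67 log2 units from Cldn4 and 4.97 from the Cldn3 locus. The opposite signs entered the choice, so nothing is read from these distances either.

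**Figure D2:**
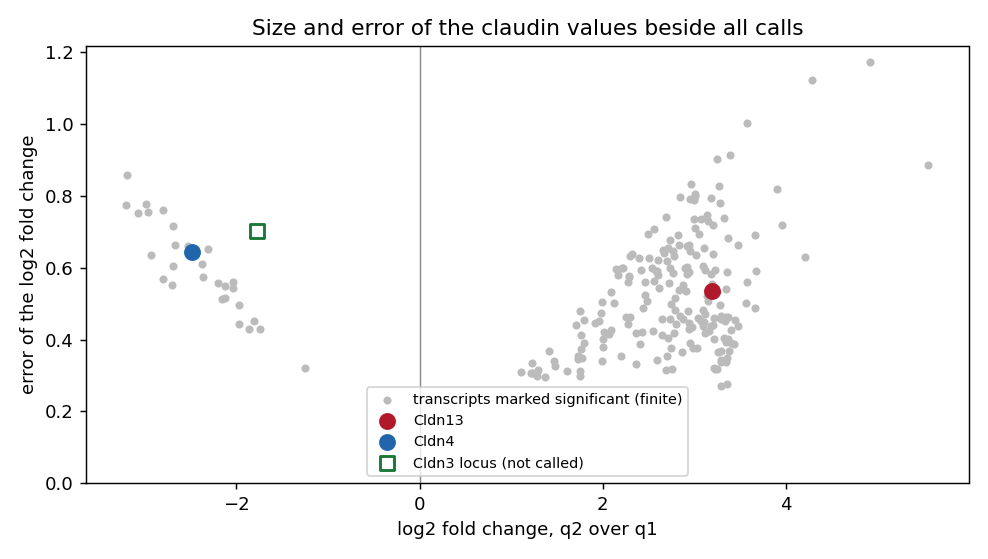
Error of the log2 fold change (vertical axis) against the log2 fold change of q2 over q1 (horizontal axis) for all finite transcripts marked significant in the authors' deposited table (grey), with the 3 claudin loci in colour. Cldn13 (error 0.54) lies inside the cloud of positive calls and Cldn4 (error 0.64) inside the sparser negative calls. The Cldn3 locus (open square, error 0.70) lies outside the band of negative calls, with a larger error than those of like fold change. That follows from its not being called, since the error was derived from the test statistic.

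Around the claudin loci the finite fold changes of the tested transcripts within 250 kb were all under 2-fold. Within 250 kb on either side of the 3 loci, the table lists 39 other transcripts at 13 loci, of which 25 were tested. None of the 25 was called, against 0.803% of all tested transcripts, and at that share nothing is read from the absence of calls here. In the authors' deposited table none of them had an unadjusted p-value under 0.05, against 3.10% of all tested transcripts. With 25 transcripts at 12 loci, nothing is read from that either. The 24 with a finite value ranged from -0.86 to 0.78 on the log2 scale, with a median of -0.04. The other tested transcript had a ratio against 0. Of the 24, 0 reached 2-fold, against 13.4% of the 28140 finite values over the table. Several of the 24 share a locus, so nothing is read from that share either. Within 500 kb, 50 finite values ranged from -1.59 to 3.50, beyond Cldn13, and 6 of them were at least 2-fold higher and 2 at least 2-fold lower in q2, none of them called. The median error was 0.85 within 250 kb and 1.10 within 500 kb, so many of these values are loose. The nearest other call on the chromosome was 2252 kb from the Cldn3 locus, at a log2 fold change of 3.09.

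A single locus separates Cldn13 from Cldn4. Its distance of 2485 bases to Cldn4 equals that of the end of Mettl27, a methyltransferase-like gene, in GENCODE. Its distance of 16842 bases to Cldn13 equals that of the second of several starts among the 9 Mettl27 transcripts there, a start picked because it matched. Its 1 tested transcript is listed at a log2 fold change of -0.33, its error was 0.53 and its interval ran from -1.37 to 0.70 in the authors' deposited table. The interval lies below that of Cldn13. It overlaps that of Cldn4, but an overlap of intervals does not test a difference, and the difference was not tested. The fold changes of the claudins were among the values that chose them, so nothing is read from either comparison. No locus lies between Cldn4 and Cldn3. Beyond the end of the whole Cldn3 locus, after a gap of 7.80 kb, the 6 tested transcripts of the next locus lay between -0.47 and 0.41.

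**Figure D3:**
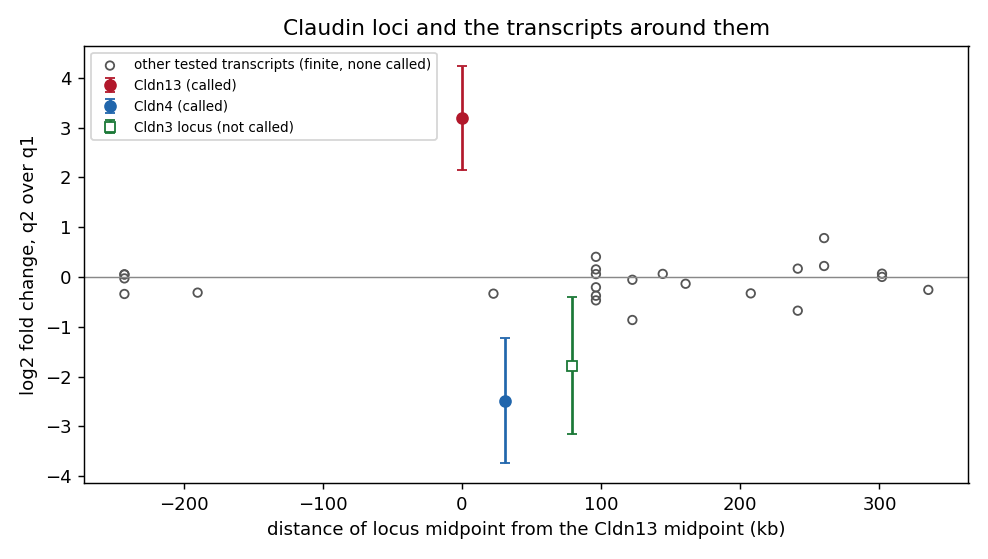
Log2 fold change of q2 over q1 (vertical axis) against the distance of each locus midpoint from that of Cldn13 in kb (horizontal axis). Coloured points with bars are the tested claudin transcripts with 95% intervals, filled where called, and open circles are the other 24 tested transcripts with a finite value within 250 kb, drawn without their errors. Cldn13 is drawn at 3.19 and Cldn4 at -2.48, and the open circles lie between -0.86 and 0.78. The fold changes were among the values that chose the claudin loci, so nothing is read from their distance to the circles.

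The sequences of the genes bear on whether reads of one claudin could have been counted for another. Cldn3 and Cldn4 were the closest relatives of each other among 31 mouse claudin genes with a coding sequence in GENCODE, with 72.7% of aligned coding bases identical. Cldn13 shared 58.2% with Cldn4 and 54.7% with Cldn3, and its closest relative was Cldn23 at 58.6%. The median over the other 30 claudins was 54.2% for Cldn13, 55.8% for Cldn4 and 55.0% for Cldn3. The longest identical run was 35 bases between Cldn3 and Cldn4, 11 bases between Cldn13 and Cldn4 and 9 bases between Cldn13 and Cldn3. The run shared by Cldn3 and Cldn4 is shown in capitals within their coding sequences from GENCODE M21, at coding bases 211 to 245 of Cldn3 and 214 to 248 of Cldn4, counted from the first base of the start codon.
Cldn3: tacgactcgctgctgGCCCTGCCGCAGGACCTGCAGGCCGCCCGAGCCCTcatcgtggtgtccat
Cldn4: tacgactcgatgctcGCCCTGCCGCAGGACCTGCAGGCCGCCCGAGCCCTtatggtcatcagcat

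No stretch of 36 bases of the Cldn13 or Cldn4 transcript occurred, on either strand, in a GENCODE transcript of another gene. For Cldn3, 5 of 1224 such stretches did, all in Wbscr25, where the genes overlap. The run of 35 bases shared by Cldn3 and Cldn4 is shorter than this window, and only exact matches were sought. The read length and the treatment of reads with several matches are not given in the sources used. What shorter matches, or longer ones with mismatches, contributed was therefore not tested.

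The bases upstream of Cldn4 and Cldn3 are shown as a description of these genes. RefSeq promoter windows matched 2 of the 3 genes, Cldn4 and Cldn3, so no comparison with Cldn13 was made, and the 250 bases before each start are printed on the gene's own strand. They lie at chr5:134946935-134947184 on the minus strand for Cldn4 and at chr5:134985964-134986213 on the plus strand for Cldn3, both on GRCm38.p6. Capitals mark the letters of a GC box (GGGCGG) or of the CACCC motif of Krüppel-like factors, on either strand.
Cldn4: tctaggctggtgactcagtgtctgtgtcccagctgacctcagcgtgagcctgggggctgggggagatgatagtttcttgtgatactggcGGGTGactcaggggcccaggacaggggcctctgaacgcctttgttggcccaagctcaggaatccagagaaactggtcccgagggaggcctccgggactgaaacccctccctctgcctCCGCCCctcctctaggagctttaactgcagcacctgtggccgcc
Cldn3: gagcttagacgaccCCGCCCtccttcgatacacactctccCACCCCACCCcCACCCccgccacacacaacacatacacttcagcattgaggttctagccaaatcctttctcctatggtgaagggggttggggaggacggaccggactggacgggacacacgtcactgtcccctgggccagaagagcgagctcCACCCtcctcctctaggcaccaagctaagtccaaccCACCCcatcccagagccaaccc
Cldn4 had 1 GC box, whose first letter lies 44 bases before the start, and Cldn3 had 1 at 236 bases before it. Among 32851 mouse promoter windows of this length, 32.7% held a GC box. CACCC occurred once upstream of Cldn4 and 5 times upstream of Cldn3, and 52% of all windows held at least 1 match. The share of windows with several matches is not given here, so nothing is read from the 5.

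The letters AACCGGTT of the Grainyhead motif, bound by the family of Grhl3, were in neither window and in 0.116% of all windows. Only this exact spelling was sought, and at that share nothing is read from its absence. Whether the windows hold other spellings of the motif was not tested. GATAA, the motif of GATA factors, and TATAAA, the TATA box, were also in neither window, against 22.6% and 12.4% of all windows. The share of G and C was 62.0% for Cldn4 and 60.8% for Cldn3, against a median of 52.4% over all windows. Aligned to each other, the windows had 106 identical bases, which is 51.2% of the 207 aligned bases and 42.4% of the 250. Their longest identical run was 11 bases. No value for unrelated windows is given here, so nothing is read from these.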

How the data were processed

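RNA from each of 2 sorted pools gave 1 library, made from 1 µg of total RNA, per the labels' protocols. Per the submitters' processing notes, TopHat 1.3.2, Cufflinks 2.0.2 and Cuffdiff were used on mm9; the annotation, the Cuffdiff settings and the depth are not given in the sources used, so no counting intervals were computed. The authors deposited 1 Cuffdiff table of log2 fold changes, with placeholders at the limit of the number format for ratios against 0. The authors deposited beside them a test statistic, which is a score, and a p-value and q-value for each transcript. The table's 2 columns of abundance match no sample and were not used. Planned work on abundances (pseudocounts, scalings, an FPKM filter, sums over a locus and the naming of transcripts of like level) therefore was not run. Instead of the planned protein comparison, for which no proteins were used here, coding sequences of GENCODE M21 were aligned.

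The members and lists were chosen with earlier results of these data known. Transcripts were taken where their locus overlapped the claudin positions, and calls are those of the authors' deposited table at a q-value of at most 0.05. Only the 3 claudins were named by position, and the neighbouring locus by its spacing; 0 of the 55418 IDs matched a symbol. Starts in the table count from 0, judged from the RefSeq lengths, and are printed counted from 1. The Benjamini-Hochberg adjustment, the alignment and the motif search were tested on simulated data. Tools were Biopython 1.88, matplotlib 3.10.9, scipy 1.17.1, pandas 2.3.3 and numpy 2.4.6 under Python 3.11.15.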

Additional observations from a re-analysis of the deposited data

How the results depend on the processing

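No replicate was left out, since each pool has 1 library. No paired analysis was possible because each group has 1 sample. Centring on the median of all tested transcripts moved the claudin values by under 0.01 log2 units, to 3.19 for Cldn13, -2.49 for Cldn4 and -1.78 for the Cldn3 locus. Of the settings that follow, the adjustment over every row and the use of the 0.01 limit for single claudins were chosen after seeing the data. A Benjamini-Hochberg adjustment of the p-values over every row of the authors' deposited table kept the calls of Cldn13, at an adjusted p of 1.95e-06, and of Cldn4, at 0.0308, and left the Cldn3 locus uncalled. At a q-value of at most 0.01 Cldn13 kept its call, and Cldn4, at -2.48 and a q-value of 0.0163, lost it. That limit left 16 negative calls in place of 33 in the table, and 168 positive calls in place of 203. Counting from 4-fold in place of 2-fold gave 916 positive and 485 negative transcripts, in place of 2155 and 1604. No transcript other than the claudins was called within 100, 250 or 500 kb of the 3 loci, although 8 of 50 finite values within 500 kb were at least 2-fold apart, against 0 within 250 kb. Coding identity taken over the shorter sequence differed by less than 1 percentage point for every pair of the 3. The depth of the libraries is unknown, so what it limits cannot be given.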
